A study of Rattus norvegicus with 6 samples.

Results

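The pyruvate dehydrogenase kinases (Pdk1, Pdk2, Pdk3, Pdk4), phosphatases (Pdp1, Pdp2) and complex subunits (Pdha1, Pdhb, Dlat, Pdhx) were followed in rat gastrocnemius, a calf muscle, under 3 dietary proteins. They were the table rows whose platform gene symbol was 1 of these 10, with 1 row kept per gene, and all 10 were found among 14506 genes. The rats were male, Sprague-Dawley and diet-induced obese, entered at 12 weeks of age, and were 20 weeks old at sampling after 8 weeks of free access to diets rich in fat and sucrose. Each diet held 4.6 kcal/g and took 10% of its energy from protein. The leucine diet drew 7.1% of its energy from casein and 2.9% from free leucine, the dairy diet drew its protein from skim milk powder, and the control diet from casein. There were 2 Affymetrix Rat Gene 1.0 ST arrays for each diet, 6 in all, while the design names 4 rats a diet. Nothing in the labels ties an array to 1 rat or to a pool, so p-values measure only the spread between these samples. Values are log2 signals, on which a difference of 1 is a doubling.

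The pyruvate dehydrogenase complex sits in the mitochondrial matrix and turns pyruvate from glycolysis into acetyl-CoA, the step that commits carbohydrate carbon to oxidation. The kinases phosphorylate its alpha subunit and switch it off, and the phosphatases remove the phosphate and switch it on. In skeletal muscle Pdk4 and Pdk2 are the main kinases. Pdk4 transcription is known to climb in fasting, diabetes and high-fat feeding, when muscle burns fatty acids and spares glucose.

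The promoters of 3 kinases are shown because the results turn on how differently these kinases behaved, Pdk4 and Pdk1 having had the largest differences between diets of the 10 genes and Pdk2 one of the smallest. Each line is the 250 bases before the annotated start, from RefSeq on build GRCr8, read 5′ to 3′ on the gene's strand. Capitals mark, on either strand, the letters GGGCGG, a binding sequence of Sp1, and CCAAT, the box bound by NF-Y. They also mark ACGTG, a form of the core of the hypoxia response element, whose other forms were not searched.
Pdk4, chr4:34568330-34568579, minus strand: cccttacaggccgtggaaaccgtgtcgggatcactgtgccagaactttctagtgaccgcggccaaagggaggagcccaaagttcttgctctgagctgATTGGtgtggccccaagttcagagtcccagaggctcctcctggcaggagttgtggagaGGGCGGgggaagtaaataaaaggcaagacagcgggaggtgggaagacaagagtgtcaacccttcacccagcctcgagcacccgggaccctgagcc
Pdk1, chr3:77113264-77113513, plus strand: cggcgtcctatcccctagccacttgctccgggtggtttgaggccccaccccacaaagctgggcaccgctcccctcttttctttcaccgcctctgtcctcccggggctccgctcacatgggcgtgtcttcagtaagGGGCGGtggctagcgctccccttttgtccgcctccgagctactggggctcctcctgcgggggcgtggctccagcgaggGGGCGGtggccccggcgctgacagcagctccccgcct
Pdk2, chr10:80483913-80484162, minus strand: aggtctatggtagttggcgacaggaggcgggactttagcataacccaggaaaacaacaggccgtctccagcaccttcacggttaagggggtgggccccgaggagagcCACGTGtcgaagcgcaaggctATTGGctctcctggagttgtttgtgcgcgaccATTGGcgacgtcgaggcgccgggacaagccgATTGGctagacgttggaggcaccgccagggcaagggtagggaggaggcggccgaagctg
The table's start for Pdk1 and Pdk2 lies inside the annotated gene, so 50 bases of the Pdk1 window and 76 of the Pdk2 window overlap it. In the Pdk4 window GGGCGG began 95 bases before the start and CCAAT, on the opposite strand, lay 153 to 149 bases before it. The Pdk1 window held GGGCGG at 115 and at 37 bases before the start. The Pdk2 window held 3 copies of CCAAT on the opposite strand and a palindrome in which ACGTG on both strands overlapped. Windows were given for 8 of the 10 genes, and 6 of these held GGGCGG, against 30.5% of all 33469 windows of the same length and 38.9% of the 21851 windows of protein-coding genes. CCAAT was in 4 of the 8 and in 34.0% of all windows, and ACGTG was in 4 of the 8 and in 16.6%. GTAAACA, a FoxO binding sequence, was in the Pdhb window alone among the 8 and in 3.21% of all, and AGGTCA, bound by nuclear receptors such as the PPARs, was in the Dlat window alone and in 14.1% of all. TATAAA, the TATA box, was in 0 of the 8 and in 12.9% of all. These are matches of letters in a short window and not measured binding.

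The array medians over the named genes lay between 4.06 and 4.205. Markers of fast skeletal muscle fibres had array medians between 12.4 and 12.8, whereas the protocol texts name liver in the storage and extraction steps. These markers do not tell gastrocnemius from other muscles. Of 12 fast-fibre markers leucine was below casein in 10 (median log2 fold change -0.11) and below dairy in 11 (-0.26). Without casein array 2 leucine was below casein in 11 of them (-0.24). Of 12 slow-fibre markers leucine was above dairy in 10 (0.26). It was above casein in 12 (2.18), but in 6 without casein array 2 (-0.0060). Casein array 2 stood apart, with a mean correlation to the other arrays of 0.974, against 0.985 to 0.988 for the rest. The summed signal of 12 slow-fibre markers, as a log2 value, was 13.56 to 13.83 with leucine, 13.21 to 13.36 with dairy and 9.96 to 13.56 with casein, the lowest being casein array 2. That of 18 hepatocyte markers was 7.87 to 10.75 with leucine, 8.04 to 9.45 with dairy and 10.27 to 12.35 with casein, and 10 of these 18 markers exceeded the median gene. That of 10 inflammatory and immediate early genes was 7.56 to 7.71 with leucine, 7.92 to 8.02 with dairy and 7.65 to 10.79 with casein, where casein array 2 was again the extreme. Macrophage markers summed to 7.99 to 8.17 with leucine, 8.80 to 8.87 with dairy and 8.09 to 9.51 with casein. Leucine was below dairy in 11 of 11 of them (median log2 fold change -0.69). It was below casein in 11 of 11 (-0.58), but in 6 without casein array 2 (-0.093). Of 9 adipocyte markers leucine was below casein in 6 (median -0.62, and -0.21 without casein array 2) and below dairy in 8 (-0.45). Their sum was 9.55 to 9.60 with leucine, 9.61 to 9.84 with dairy and 9.08 to 9.84 with casein, but its brightest gene was Pnpla2, a lipase that muscle also expresses. Adipoq, the adiponectin gene of fat cells, was at 4.28 and 4.22 with leucine, 6.72 and 4.48 with dairy, and 5.66 and 7.42 with casein. The lowest deposited value was 1.14, so a marker above 0 on this scale need not be expressed. In a piece of muscle, fewer cells of a type and less RNA per cell cannot be told apart. The part of these shifts in the results below was not tested. Values without casein array 2 are given beside many of the fold changes, but not all that it moved.

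Among the kinases, Pdk4 had the widest separation between diets. Its log2 signal was 11.69 and 11.40 with leucine, 10.44 and 11.26 with dairy, and 10.29 and 9.94 with casein. Both leucine arrays lay above both dairy arrays, and both dairy arrays above both casein arrays, although dairy array 1 was within 0.15 of casein array 1. Pdk4 was the only one of the 10 genes with this full order, which 1.96% of all genes showed. Leucine over casein gave a log2 fold change of 1.43 ± 0.32 (SE, n = 2 arrays each), or 2.69-fold, with a 95% interval from 0.56 to 2.30 that is not adjusted for the number of genes and a limma adjusted p of 0.387. Dairy over casein gave 0.74 ± 0.32, with an interval from -0.13 to 1.61 and a limma adjusted p of 0.833. Leucine over dairy gave 0.69 ± 0.32, with an interval from -0.18 to 1.56 and a limma adjusted p of 0.903. With any 1 array left out, leucine over casein stayed between 1.25 and 1.61, the lowest being without casein array 2. Dairy over casein ranged from 0.33 without dairy array 2 to 1.15 without dairy array 1, and leucine over dairy from 0.28 without dairy array 1 to 1.104 without dairy array 2, so the place of dairy rested on which dairy array was used. In the limma F test over the 3 diets Pdk4 ranked 594 of 14506 genes, with an adjusted p of 0.602. None of these tests passed the threshold of an adjusted p under 0.05, which 0% of all genes passed in that F test, while 7.25% had an unadjusted p under 0.05.

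Pdk1, a kinase that hypoxia induces in many cells, followed in size. Its signal was 7.46 and 7.71 with leucine, 7.15 and 7.02 with dairy, and 7.15 and 5.94 with casein. Both leucine arrays were the highest of the 6, dairy and casein array 1 lay together, and casein array 2 was lower than every other array by more than 1. The log2 fold change of leucine over casein was 1.03 ± 0.42, with an interval from -0.11 to 2.18 and a limma adjusted p of 0.559. It was 0.43 without casein array 2, the array that was also lowest in slow-fibre signal, and 1.64 without casein array 1. Dairy over casein was 0.54 ± 0.42, and turned to -0.069 without casein array 2. Leucine over dairy, which uses no casein array, was 0.50 ± 0.42, with an interval from -0.65 to 1.64 and a range of 0.37 to 0.62 when 1 array was left out.

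Pdk2, the most widely expressed kinase, had the same deposited value, 9.34, on both leucine arrays and on casein array 1, with 9.32 and 9.56 with dairy and 9.34 on casein array 2. Its spread lay almost wholly within the dairy pair. The interval of leucine over casein ran from -0.27 to 0.26, which leaves out a difference as large as that measured for Pdk4. Pdk3 was dim, below the median gene, at 3.00 on both leucine arrays and on casein array 1, 2.82 and 3.13 with dairy and 2.93 on casein array 2. The difference of leucine over casein was 0.032 ± 0.12 for Pdk3 and 0 without casein array 2, and its groups overlapped in all 3 comparisons. Exact repeats of this kind are common in the table, since 34.6% of all genes had the same value on 3 or more arrays.

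**Figure D1:**
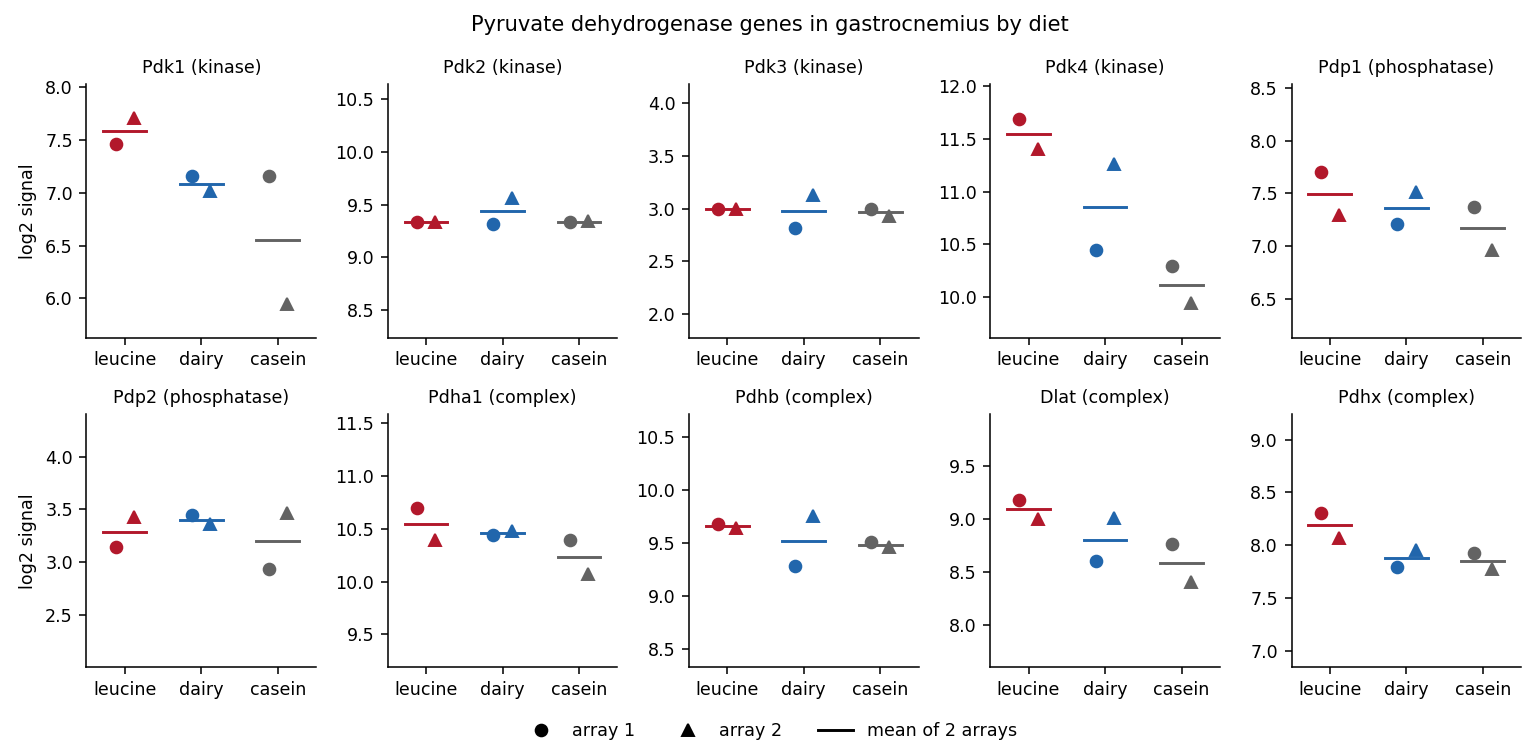
Log2 signal of each of the 10 genes on each array (circles array 1, triangles array 2, bars the mean of 2 arrays), with diets on the horizontal axis and the same height of scale in every panel. Pdk4 steps down across leucine, dairy and casein, Pdk1 has its lowest value, 5.94, on casein array 2, and Pdk2 and Pdk3 are nearly flat.

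The arrays of the diets overlapped for both phosphatases. Pdp1, the calcium-activated phosphatase of muscle, was at 7.70 and 7.30 with leucine, 7.21 and 7.52 with dairy, and 7.37 and 6.97 with casein. Arrays of 1 diet differed by 0.31 to 0.40, and the diets overlapped in all 3 comparisons. Pdp1 had a log2 fold change of leucine over casein of 0.33 ± 0.23, with a limma adjusted p of 0.678, and 0.13 without casein array 2. Dairy over casein was 0.19 ± 0.23, and -0.0095 without that array. Pdp2, the isoform linked to insulin, was dim, at 3.14 and 3.43 with leucine, 3.45 and 3.36 with dairy, and 2.94 and 3.47 with casein. Its log2 fold change of leucine over casein was 0.085 ± 0.21, and was 0.35 without casein array 2, -0.18 without casein array 1 and -0.060 without leucine array 2.

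Of the complex subunits, Pdhx, which binds the E3 component to the core, came nearest to a difference. Its signal was 8.31 and 8.07 with leucine, 7.79 and 7.96 with dairy, and 7.93 and 7.78 with casein. Both leucine arrays lay above the other 4, and dairy and casein were interleaved. For Pdhx leucine over casein was 0.34 ± 0.12, with an interval from 0.0028 to 0.67 and a limma adjusted p of 0.515, and leucine over dairy was 0.31 ± 0.12, with a limma adjusted p of 0.903. With any 1 array left out they ran from 0.22 to 0.46 and from 0.19 to 0.43. Their sign could not turn, since both leucine arrays lay above the other 4. Dairy over casein was 0.024 ± 0.12 for Pdhx, and -0.053 without casein array 2.

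Dlat, the E2 acetyltransferase that forms the core, was at 9.19 and 9.001 with leucine, 8.60 and 9.01 with dairy, and 8.77 and 8.40 with casein. Leucine lay above casein, and dairy array 2 lay within the leucine values. For Dlat leucine over casein was 0.51 ± 0.20, or 1.42-fold, with an interval from -0.043 to 1.06 and a limma adjusted p of 0.554, and was 0.33 without casein array 2. Dairy over casein was 0.22 ± 0.20, 0.039 without casein array 2 and 0.014 without dairy array 2.

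Pdha1, the E1 alpha subunit that the kinases phosphorylate, was at 10.70 and 10.40 with leucine, 10.44 and 10.48 with dairy, and 10.39 and 10.07 with casein. Leucine array 2 and casein array 1 nearly coincided, and casein array 2 was the lowest. The log2 fold change of leucine over casein was 0.32 ± 0.16, and 0.16 without casein array 2. Pdhb, the E1 beta subunit, was at 9.68 and 9.65 with leucine, 9.28 and 9.76 with dairy, and 9.51 and 9.46 with casein. The dairy pair spanned all other arrays for Pdhb, and leucine over casein was 0.18 ± 0.17. Pdha1 and Dlat each had a second row in the table. The rows of Pdha1 differed by 0.0032 to 0.037 over the 6 arrays and those of Dlat by 0.033 to 0.14, and which locus each row reads was not examined.

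**Figure D2:**
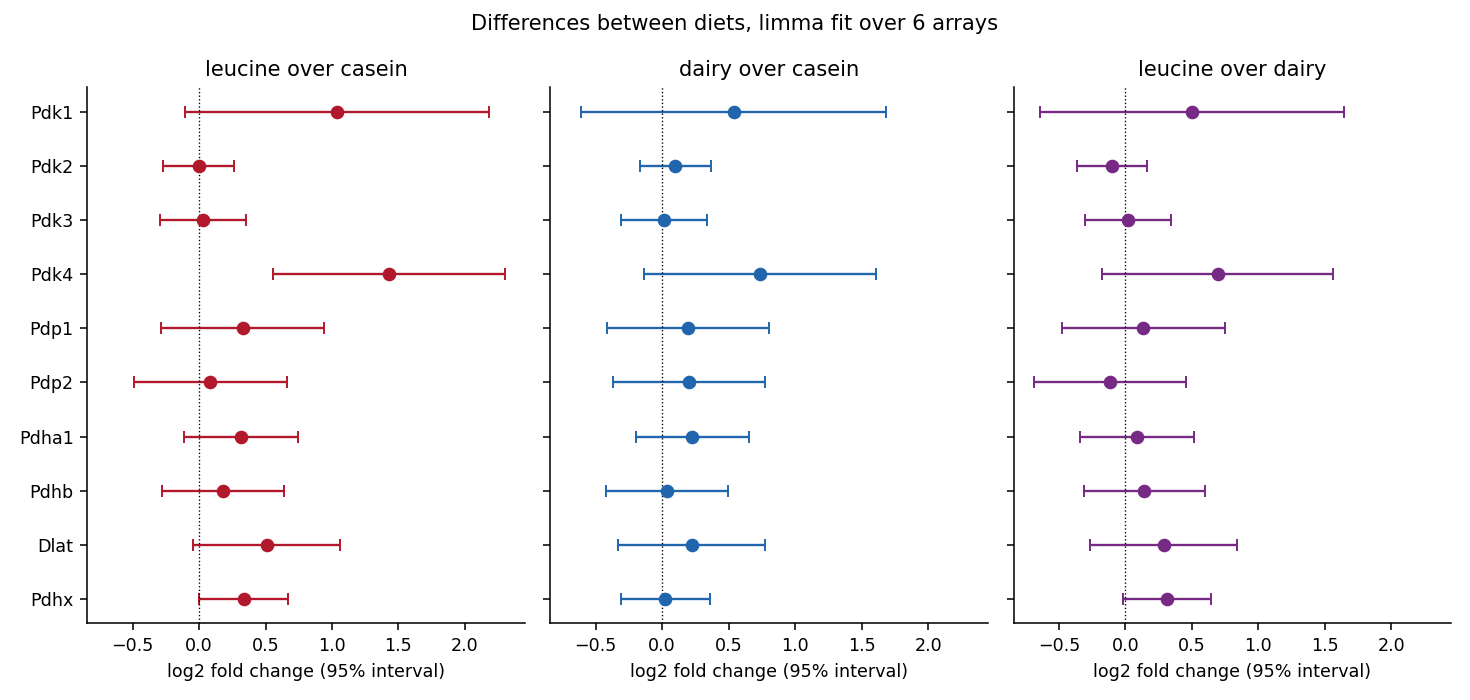
Log2 fold change (points) and 95% interval (bars) of the 10 genes in 3 comparisons, from the limma fit over 6 arrays. The intervals exclude 0 for Pdk4 and, narrowly, for Pdhx in leucine over casein, and for no gene in dairy over casein or leucine over dairy.

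Across the 10 genes, leucine over casein had a positive log2 fold change in 9 and a negative one in 1, Pdk2, where 48.5% of all genes were above 0. The median over the 10 was 0.32, beside 0 over all genes. Over the 7253 genes above the median level, where 8 of the 10 lay, the median was 0.049. The arrays of leucine and casein did not overlap, with leucine higher, in 6 of the 10, and in 15.9% of all genes. These 6 were Pdk1, Pdk4 and the 4 complex subunits. The place of Pdha1 among them depended on the row kept. On its other row leucine array 2 and casein array 1 were equal, at 10.36. By limma 0 of the 10 passed an adjusted p of 0.05, as 0% of all genes did, and 2, Pdk4 and Pdhx, had an unadjusted p under 0.05 with leucine higher, against 4.76% of all genes. In either direction 9.61% of all genes had such a p. Without casein array 2 the count was 8 positive with 2 at exactly 0, Pdk2 and Pdk3, and the median was 0.21. The median was 0.19 without leucine array 1.

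Dairy over casein was positive in 10 of the 10, where 50.6% of all genes were above 0, with a median of 0.20. Over the 7253 genes above the median level, where 8 of the 10 lay, the median was already 0.098. The arrays did not overlap, with dairy higher, in 2 of the 10, Pdk4 and Pdha1, and in 11.5% of all genes. By limma 0 of the 10 passed the threshold, as 0% of all genes did, and 0 had an unadjusted p under 0.05 with dairy higher, against 2.49% of all genes, or 4.80% in either direction. The count of positive values was 6 of 10 without casein array 2 and also 6 of 10 without dairy array 2, with a median of 0.026 in both cases.

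Leucine over dairy was positive in 8 of the 10, where 48.4% of all genes were above 0, with a median of 0.14. Over the 7253 genes above the median level the median was -0.031. The arrays did not overlap, with leucine higher, in 3 of the 10, Pdk1, Pdk4 and Pdhx, and in 13.4% of all genes. By limma 0 of the 10 passed the threshold, as 0% of all genes did, and 0 had an unadjusted p under 0.05 with leucine higher, against 2.25% of all genes, or 5.70% in either direction. Without dairy array 1 the count was 5 of 10 and the median 0.024, and without dairy array 2 they were 9 of 10 and 0.34. Leaving out leucine array 1 gave a median of 0.076, and leaving out leucine array 2 one of 0.29. The comparisons share arrays, leucine with casein and dairy with casein having the casein arrays in common, so their values are not independent.

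Seen by array, 6 of the 10 genes had their lowest value on casein array 2, which holds the single lowest value of 22.1% of all genes, and 5 had their highest on leucine array 1, which holds that of 16.6%. Within the dairy diet, array 2 was above array 1 in 8 of the 10, with a median absolute difference of 0.28 between the 2 arrays. That is more than the median of 0.20 between the dairy and casein means. Within casein, array 2 was below array 1 in 8 of the 10, with a median absolute difference of 0.34. Within leucine, array 2 was below array 1 in 6, above it in 2 and equal in 2, with a median absolute difference of 0.24.

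**Figure D3:**
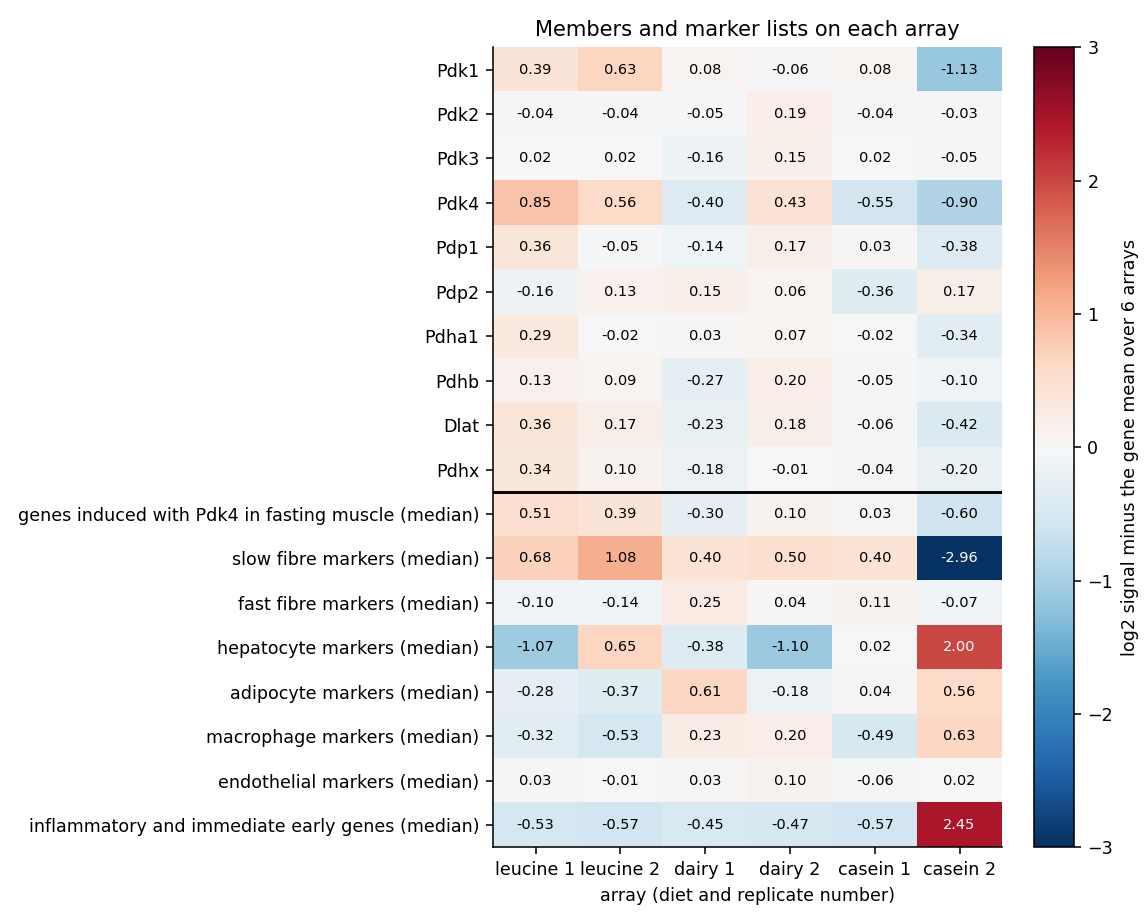
Log2 signal minus the gene's mean over the 6 arrays, for the 10 genes (above the line) and as the median of each marker list (below it), with arrays in columns. Casein array 2 is at -1.13 for Pdk1, -2.96 for slow-fibre markers, 2.0 for hepatocyte markers and 2.45 for inflammatory genes, while Pdk4 is at -0.55 and -0.90 on the 2 casein arrays.

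The rest of the complex and the supply of its lipoyl and thiamine cofactors was read from a list of 10 genes, of which 7 were measured. Leucine over casein was positive in 5 and negative in 2, with a median of 0.32. Dairy over casein was positive in 6 and negative in 1, with a median of 0.20. In both, 0 passed the limma threshold, as 0% of all genes did. With 1 array left out these medians ran from 0.14 to 0.46 and from 0.12 to 0.28, with 0.14 and 0.13 without casein array 2. Dld, the E3 dehydrogenase that closes the reaction cycle, was at 9.54 and 9.49 with leucine, 9.21 and 9.19 with dairy, and 9.38 and 8.61 with casein. Its log2 fold change of leucine over casein was 0.52 ± 0.27, and 0.14 without casein array 2. Lias, which makes the lipoyl group carried by Dlat, was at 6.54 and 6.78 with leucine, 6.47 and 6.70 with dairy, and 6.33 and 6.37 with casein, and leucine over casein was 0.31, and 0.33 without casein array 2. Lipt2, which loads the octanoyl precursor of that group, went the other way. It was at 4.05 and 4.06 with leucine, 4.38 on both arrays with dairy, and 4.38 and 4.50 with casein, a log2 fold change of -0.38 ± 0.07 against casein with a limma adjusted p of 0.353 and of -0.32 ± 0.07 against dairy with 0.595. Both dairy arrays and casein array 1 held the same deposited value, near the array medians, so the dairy pair added no spread to these SEs. Pdpr, the regulatory subunit of the phosphatase, was at 0.43 ± 0.23 for leucine over casein, with overlapping arrays, and at 0.21 without casein array 2.

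Of 12 genes of pyruvate supply and of the other fates of pyruvate, leucine over casein was positive in 7 and negative in 5, with a median of 0.14 that was -0.062 without casein array 2, 0.067 without leucine array 1 and 0.075 without leucine array 2. No gene passed the limma threshold, as 0% of all genes did. None had an unadjusted p under 0.05, against 9.61% of all genes in either direction. Pkm, the muscle pyruvate kinase that makes pyruvate, was at 12.02 and 11.96 with leucine, 12.34 and 12.18 with dairy, and 12.32 and 12.09 with casein, below both other diets on both leucine arrays. Its log2 fold change was -0.22 ± 0.11 for leucine over casein and -0.27 ± 0.11 for leucine over dairy, with limma adjusted p of 0.631 and 0.903. For Pkm leucine over casein was -0.33 without casein array 2. Mpc2, a subunit of the carrier that brings pyruvate into mitochondria, was at 7.85 and 7.97 with leucine, 7.59 and 8.04 with dairy, and 7.63 and 7.39 with casein, and leucine over casein was 0.40 ± 0.19. Its partner Mpc1 was at 0.20 ± 0.40, and -0.37 without casein array 2. Ldhb, the lactate dehydrogenase subunit of oxidative fibres, was at 8.57 and 8.75 with leucine, 8.09 and 8.05 with dairy, and 8.29 and 4.96 with casein. Its log2 fold change of 2.04 ± 1.13 for leucine over casein was 0.37 without casein array 2.

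The sister complexes that oxidise 2-oxoglutarate and branched-chain 2-oxoacids share the E3 subunit with pyruvate dehydrogenase and served for contrast. Of 8 measured genes of 9, leucine over casein was positive in 4 and negative in 4, with a median of -0.0073, and dairy over casein positive in 3 and negative in 5, with a median of -0.035. With 1 array left out the medians ran from -0.0069 without casein array 2 to 0.11 without casein array 1, and from -0.16 to 0.088 without the same arrays. By limma 0 passed, as 0% of all genes did. None had an unadjusted p under 0.05, against 9.61% of all genes for leucine over casein and 4.80% for dairy over casein. Ppm1k, the phosphatase of the branched-chain complex, had the largest value, 0.78 ± 0.32 for leucine over casein, and 0.38 without casein array 2. Its opposing kinase Bckdk was at -0.12 ± 0.28, and at 0.10 without casein array 2.

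Of 11 transcription factors and coactivators known to induce Pdk4, leucine over casein was positive in 6 and negative in 5, with a median of 0.13, 0.20 (9 of 11 positive) without casein array 2, 0.34 (7 of 11) without leucine array 2 and -0.091 (5 of 11) without leucine array 1. By limma 0 passed, as 0% of all genes did, while 2 of the 11 had an unadjusted p under 0.05 with leucine higher. These were Ppara and Esrrg, and 4.76% of all genes had such a p. Without casein array 2 leucine over casein was 0.80 for Ppara and 0.71 for Esrrg. Ppara, the fatty acid receptor, was at 6.26 and 5.74 with leucine, 5.26 and 5.53 with dairy, and 5.20 and 4.74 with casein, the same order of diets as Pdk4. Leucine over dairy was 0.60 ± 0.26 for Ppara. Esrrg, an estrogen-related receptor of oxidative muscle, was at 6.38 and 6.83 with leucine, 5.44 and 6.05 with dairy, and 5.89 and 5.25 with casein, and leucine over dairy was 0.86 ± 0.34, with a limma adjusted p of 0.903. Foxo1, a factor held back by insulin, was at 6.59 and 6.68 with leucine, 6.33 and 6.84 with dairy, and 5.41 and 8.13 with casein. The casein pair spanned all other arrays, so Foxo1 stood at -0.13 ± 0.94 for leucine over casein, and at 1.22 without casein array 2. Ppargc1a, a coactivator of mitochondrial genes, was at 0.39 ± 0.27 for leucine over casein.

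Genes that fasting induces in muscle together with Pdk4 were read from a list of 16, of which 14 were measured. Leucine over casein was positive in 13 and negative in 1, with a median of 0.82, and leucine over dairy positive in 13 and negative in 1, with a median of 0.53. In each of these comparisons the arrays did not overlap, with leucine higher, in 10 of the 14, against 15.9% of all genes for leucine over casein and 13.4% for leucine over dairy. Dairy over casein was positive in 12 and negative in 2, with a median of 0.30, and 1 of the 14 did not overlap, with dairy higher, against 11.5% of all genes. In all 3 comparisons 0 passed the limma threshold, as 0% of all genes did. Without casein array 2 leucine over casein was positive in 12 with a median of 0.44, and dairy over casein was positive in 4 and negative in 10 with a median of -0.092. Without dairy array 1 the median was 0.20 for leucine over dairy and 0.50 for dairy over casein, and without dairy array 2 it was 0.79 for leucine over dairy and 0.12 for dairy over casein, with 9 of 14 positive. Without casein array 1 dairy over casein had a median of 0.56. Lpl, the lipase that frees fatty acids from lipoproteins, was at 9.76 and 10.36 with leucine, 9.07 and 9.34 with dairy, and 8.999 and 8.78 with casein. The log2 fold change of leucine over casein for Lpl was 1.17 ± 0.24, with a limma adjusted p of 0.366, and 1.06 without casein array 2. Hadhb, a thiolase subunit of fatty acid beta-oxidation, was at 10.49 and 10.401 with leucine, 9.71 and 9.95 with dairy, and 10.01 and 9.57 with casein, and the 2 leucine arrays were again the highest. Fabp3, the fatty acid-binding protein of heart and oxidative muscle, was at 10.79 and 10.69 with leucine, 9.25 and 10.45 with dairy, and 9.94 and 7.83 with casein. Ucp3, a mitochondrial carrier that accompanies fat oxidation, was at 9.15 and 9.003 with leucine, 7.88 and 8.98 with dairy, and 7.90 and 8.53 with casein. For Lpl, Hadhb, Fabp3 and Ucp3 dairy array 1 lay below dairy array 2, as it did for Pdk4.

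For Pdk1 the matching list was 12 genes induced by hypoxia. Leucine over casein was positive in 5 and negative in 7, with a median of -0.14 that was -0.30 without casein array 1 and -0.096 without leucine array 1, and leucine over dairy positive in 6 and negative in 6, with a median of -0.014 that ran from -0.071 to -0.0024 with 1 array left out. By limma 0 passed, as 0% of all genes did. Ndrg1, a stress-responsive gene, was at 5.19 and 5.42 with leucine, 6.02 on both arrays with dairy, and 5.79 and 6.69 with casein, a log2 fold change of -0.93 ± 0.32 against casein and -0.48 without casein array 2. Egln3, an oxygen-sensing prolyl hydroxylase, was at 0.60 ± 0.35 against casein, with leucine higher on both arrays.

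**Figure D4:**
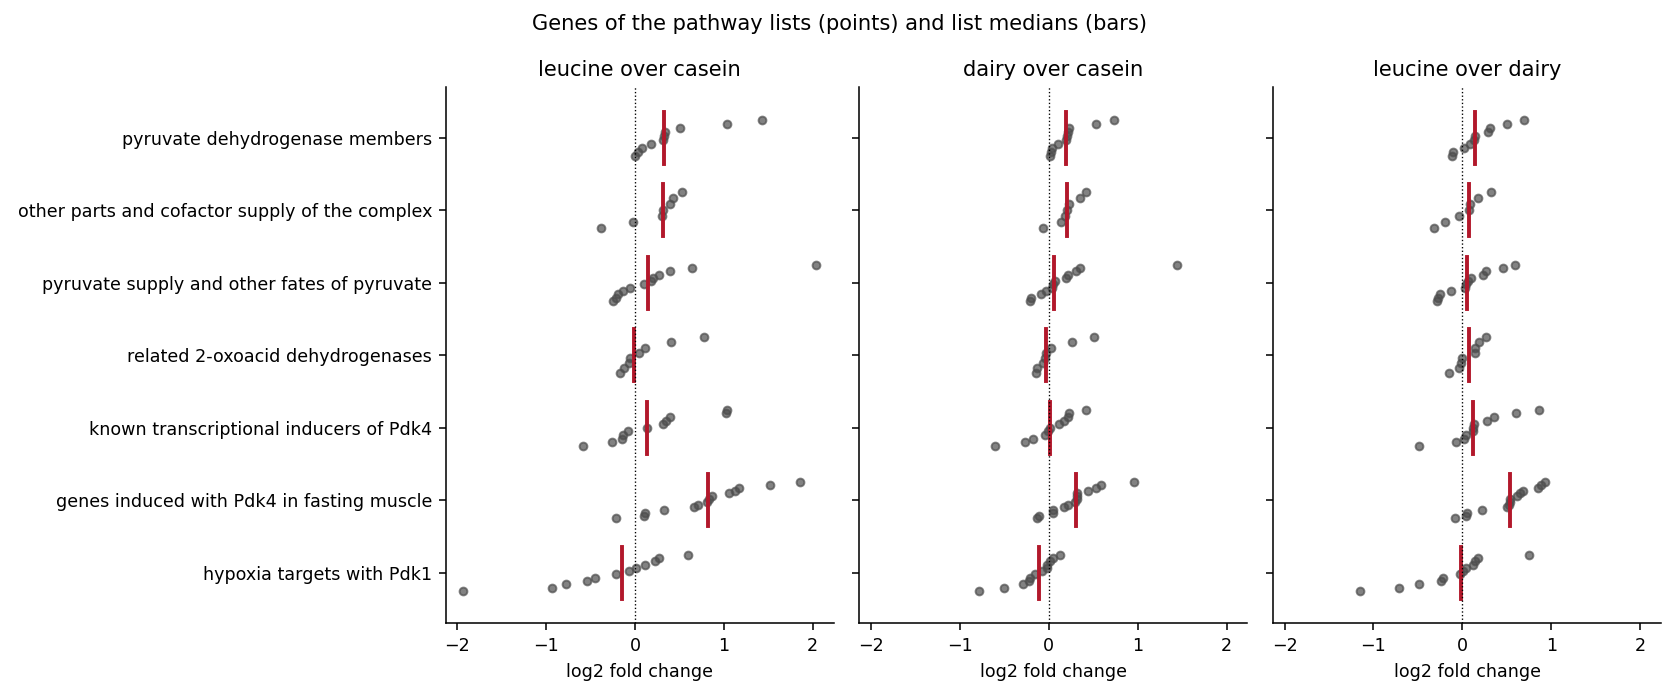
Log2 fold change of each gene (points) and the median (bar) of the 10 members and 6 pathway lists in 3 comparisons. The genes induced with Pdk4 in fasting muscle have a median of 0.82 for leucine over casein, 0.30 for dairy over casein and 0.53 for leucine over dairy, and the related dehydrogenases have medians near 0.

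The genes whose pattern over the 6 arrays was most like that of Pdk4 were taken from 1141 genes above the median level with a range of at least 1. They were Tm6sf1 with a Pearson r of 0.980, Atp5mc3 with 0.979, Mrpl47 with 0.970, Etfdh and Hipk1 with 0.969, and Clybl with 0.966. These correlations are a description over 6 arrays that share the diets. Atp5mc3, a c subunit of ATP synthase, was at 10.00 and 9.74 with leucine, 9.23 and 9.57 with dairy, and 9.25 and 8.95 with casein. Etfdh, which passes electrons from fatty acid oxidation to ubiquinone, was at 9.37 and 9.26 with leucine, 8.31 and 9.04 with dairy, and 8.55 and 7.88 with casein. Tm6sf1 was at 6.13 and 5.72 with leucine, 5.10 and 5.88 with dairy, and 4.65 and 4.28 with casein. Its leucine over casein was 1.46, beside 1.43 for Pdk4. Picking it by correlation with Pdk4 over the same arrays favoured such a likeness.

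**Figure D5:**
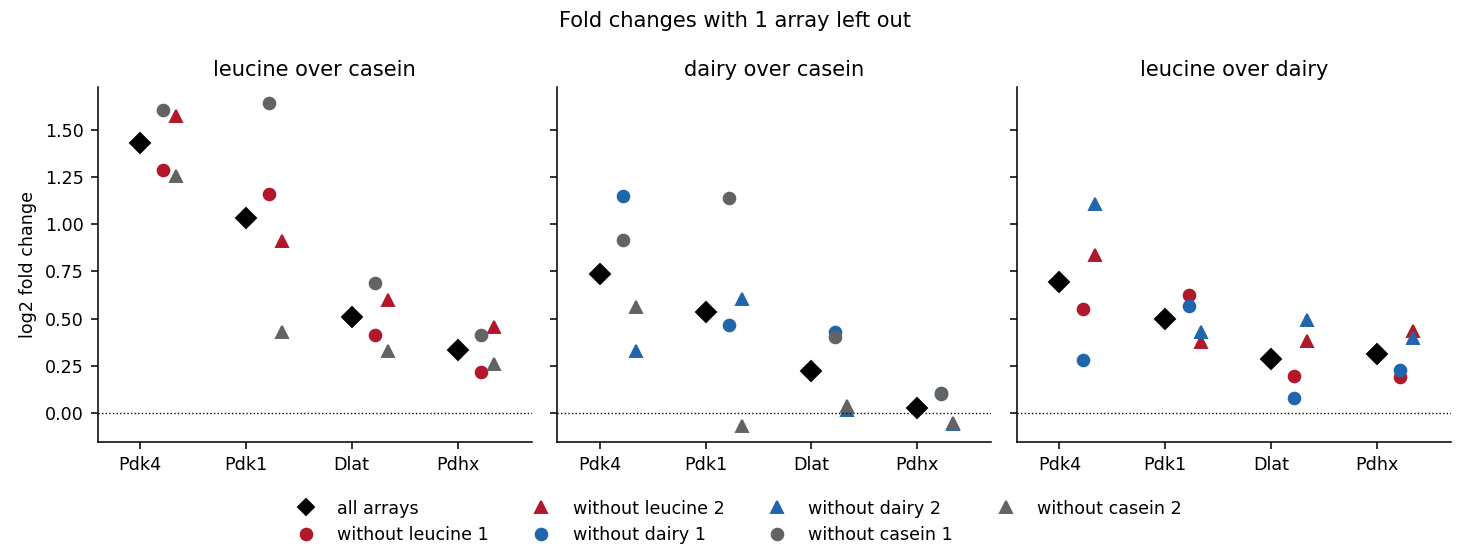
Log2 fold change of the 4 members with the largest values in leucine over casein (chosen after their values were seen), with all arrays (diamonds) and with 1 array of the 2 diets left out (colours by diet, circles array 1, triangles array 2). Pdk4 stays between 1.25 and 1.61 in leucine over casein, while Pdk1 drops to 0.43 there and to -0.069 in dairy over casein without casein array 2.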

How the data were processed

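Total RNA labelled with biotin was hybridised to Affymetrix Rat Gene 1.0 ST arrays, per the labels. The authors deposited log2 signals, with each transcript cluster summarised to a single value on an array. The submitters' processing notes name Affymetrix Expression Console. Version, background correction and normalization are not given in the sources used here. This table held 29214 rows with values from 1.14 to 13.7, of which 15310 had 1 gene in the platform annotation. Symbols were updated through RefSeq gene identifiers (15279 rows) or accessions (6 rows), and the row with the highest mean was kept per gene.

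All 14506 genes were fitted with limma 3.58.1 in R 4.3.3, with diet as the only term on all 6 arrays (3 residual degrees of freedom), empirical Bayes moderation and Benjamini-Hochberg adjustment over all genes, at a threshold of 0.05. The procedure was tested on simulated data. Intervals are 95% and not adjusted. An exact two-sided permutation test of 2 arrays against 2 cannot go below 0.333, and was not used. The number of arrays limits the precision. Same-numbered arrays correlated, in their differences from each other within a diet, at 0.179 for leucine with casein, 0.0865 for dairy with casein and 0.0536 for leucine with dairy, and were not all above 0.1, so replicate numbers were not treated as pairs.

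The text names all 10 members, up to 4 genes a list among those with the smallest p for leucine over casein or with a role the text needs, and the 6 genes most like Pdk4. The members and lists were chosen with earlier results of these data known. Alternatives were quantile normalization, a median shift, a filter on dim genes, all rows, an intensity trend, the 4 arrays of the 2 diets, the replicate block, row means and leaving out each array.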

Additional observations from a re-analysis of the deposited data

How the results depend on the processing

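Of the 30 member fold changes, 0 passed the threshold of 0.05 under any alternative. Fold changes here are differences between diet means. All rows in the fit, an intensity trend or the arrays of 2 diets alone could therefore not alter the 30 values. Nor could the filter on dim genes alter the 24 it left. Row means per symbol could alter only Pdha1 and Dlat, and all 30 kept their sign. The fit with the replicate number as a block gave 0 genes and 0 members past the threshold in each comparison. Each diet had both replicate numbers, so this block could not alter a fold change. Shifting arrays to 1 median put the median of all genes at 0.10 for leucine over casein, 0.038 for dairy over casein and 0.066 for leucine over dairy, in place of 0, 0.0028 and 0. Pdk2 then stood at 0.10 for leucine over casein, in place of -0.0031 and at the level of that shift. Quantile normalization turned dairy over casein to -0.090 for Pdhb and to -0.10 for Pdhx, with 8 of 10 members positive and a median of 0.11, and put Pdhb at 0.049 for leucine over casein.

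With 1 array left out, 18 member values changed sign, and 2 became 0, those of Pdk2 and Pdk3 for leucine over casein without casein array 2. For leucine over casein the values ran from -0.0063 to 0 for Pdk2, 0 to 0.064 for Pdk3 and -0.18 to 0.35 for Pdp2. For dairy over casein they ran from -0.069 to 1.141 for Pdk1, -0.021 to 0.22 for Pdk2, -0.14 to 0.17 for Pdk3, -0.0095 to 0.40 for Pdp1, -0.062 to 0.47 for Pdp2, -0.20 to 0.27 for Pdhb and -0.059 to 0.11 for Pdhx. For leucine over dairy they ran from -0.22 to 0.018 for Pdk2, -0.14 to 0.18 for Pdk3, -0.066 to 0.34 for Pdp1, -0.26 to 0.027 for Pdp2, -0.062 to 0.24 for Pdha1 and -0.092 to 0.38 for Pdhb. The count of positive members, an alternative chosen after seeing the data, ran from 8 to 9 for leucine over casein, 6 to 10 for dairy over casein and 5 to 9 for leucine over dairy. The count of all genes past the threshold ran from 0 to 1 for leucine over casein and for dairy over casein, the 1 being Il6 in both without casein array 1, when casein array 2 was the only control, and the cause was not tested. By limma with all arrays 1394 genes had an unadjusted p under 0.05 for leucine over casein, 696 for dairy over casein and 827 for leucine over dairy. With a lone casein array assumed to vary like the other groups, these counts for leucine over casein and dairy over casein were 2776 and 2389 without casein array 1, and 1925 and 1485 without casein array 2.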
